A study of Mus musculus with 8 samples.

Results

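The 10 genes described here encode acute phase proteins (Lcn2, Lrg1, Saa1, Saa2 and Saa3), complement proteins (C3, Cfb, C4b and Serping1) and the receptor that carries IgA across the epithelium (Pigr). They were chosen by symbol and make up 10 of the 55414 gene IDs in the count table. RNA was sequenced from Paneth cells, the antimicrobial secretory cells of the small intestinal crypts, which were sorted from the small intestine of wild-type (WT) C57BL/6J mice. The control group had been injected with phosphate-buffered saline (PBS) and the treated group with the inflammatory cytokine TNF (tumor necrosis factor), and tissue was taken 3 h later. Each group held 4 libraries, described as biological replicates, and each is named here by its group and replicate number. The sources used here do not give the dose, the route, the age or the sex of each mouse.

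Acute phase proteins are secreted during inflammation, mostly by the liver under the control of IL-6, IL-1 and TNF, but epithelia also make some of them. Complement is a cascade of plasma and tissue proteins in which C4 and C2 form the convertase of the classical and lectin pathways, factor B (Cfb) that of the alternative pathway, and both convertases cleave C3. The polymeric immunoglobulin receptor (Pigr) binds dimeric IgA from lamina propria plasma cells at the basal side of epithelial cells and releases it into the lumen as secretory IgA.

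The libraries held 23824717 to 32576077 counts. Paneth markers were abundant, with Lyz1, Defa24 and Itln1 at ranks 1, 2 and 3 among all genes by mean count in PBS. Of 8 such markers, all tested, none fell after TNF, while Pla2g2a rose by 1.01 and Sox9 by 0.67 on the log2 scale (0.63 and 0.29, neither called, with library size alone). TNF replicate 4 stood apart from the other libraries. Its score on the second principal component was 63.9, against -29.1 to 4.22 in the other 7 libraries, and its scaling factor was 0.448, against 0.995 to 1.36. For the members that were tested, and where it moved a call, values are therefore also given without it. Levels are normalized CPM, counts brought to a common library size after correction by the trimmed mean of M-values (TMM). Fold changes are TNF against PBS. Unless another setting is named, adjusted p-values come from the quasi-likelihood test of edgeR with Benjamini-Hochberg adjustment over 13368 tested genes, and a gene was called when its adjusted p was under 0.05.

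In short, Lcn2, Lrg1 and C3 rose after TNF, with fold changes of 119, 101 and 23.8, from levels that were close to 0 in PBS. Pigr, Cfb and C4b were present in both groups and were not called, with C4b close to the threshold. Serping1, Saa1, Saa2 and Saa3 had too few counts to be tested. Thus 3 of the 10 genes, of which 6 passed the filter and were tested, were called, all 3 higher in TNF. Of all tested genes 43.0% were called, with 23.4% higher and 19.6% lower. All 3 had few or no counts in PBS and passed the filter through their TNF counts. The same 3 members had no overlap between the groups, as did 42.1% of tested genes. In sorted bulk RNA, fewer cells of a type and less RNA per cell cannot be told apart.

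**Figure D1:**
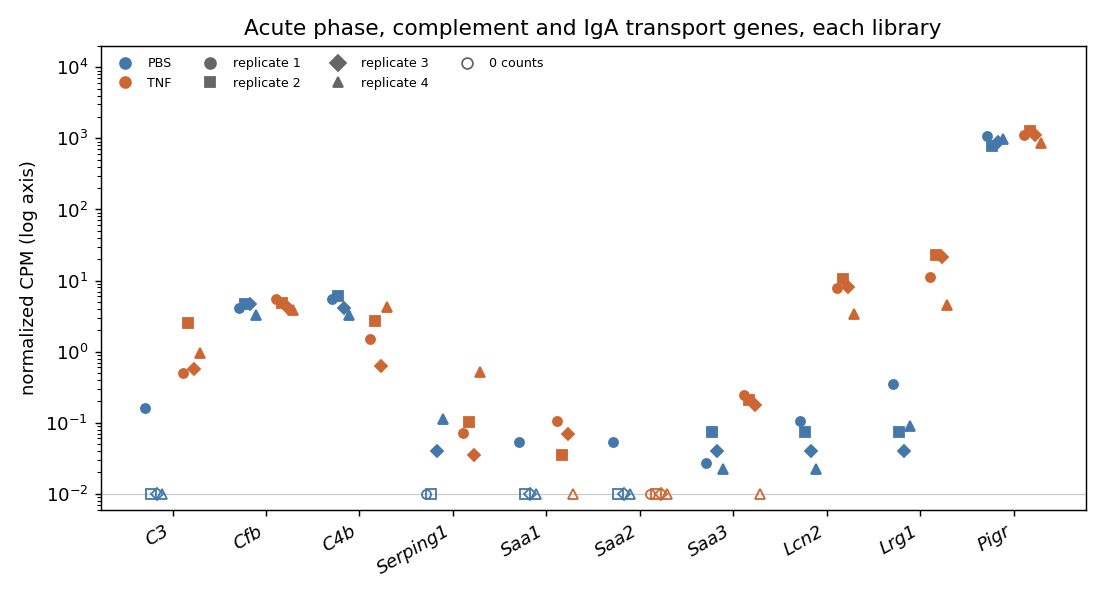
Normalized CPM (log axis) of the 10 genes in each library, with PBS in blue, TNF in orange and a marker shape for each replicate; open symbols are libraries with 0 counts, drawn at a fixed height. The groups are separate for C3, Lcn2 and Lrg1, overlap for Cfb, C4b and Pigr, and lie near the detection limit for Serping1 and the Saa genes.

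Promoter sequence is shown for the 3 genes that rose and for Cfb and C4b, because these complement genes carry NF-kB motif matches and were not called. Each line gives the 250 bases upstream of the start of the canonical transcript, 5′ to 3′ on the strand of the gene, from GRCm39 with GENCODE starts. The windows are chr2:32277810-32278059, chr17:56429002-56429251, chr17:57535156-57535405, chr17:35081560-35081809 and chr17:34962913-34963162, all on the minus strand. The Lcn2 window lies inside the annotated gene, which has a transcript that starts further upstream. Capitals mark matches to the NF-kB consensus or to the C/EBP motif TTNNGCAA.
Lcn2: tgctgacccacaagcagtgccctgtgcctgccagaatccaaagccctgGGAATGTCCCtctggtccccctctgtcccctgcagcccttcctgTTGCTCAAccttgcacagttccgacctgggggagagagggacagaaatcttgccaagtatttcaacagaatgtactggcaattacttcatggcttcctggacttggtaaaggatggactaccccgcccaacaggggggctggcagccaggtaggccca
Lrg1: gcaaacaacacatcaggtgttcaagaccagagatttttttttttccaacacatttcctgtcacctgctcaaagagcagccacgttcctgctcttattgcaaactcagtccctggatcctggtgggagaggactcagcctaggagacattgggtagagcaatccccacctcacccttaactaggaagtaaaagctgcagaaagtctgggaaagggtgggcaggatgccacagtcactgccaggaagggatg
C3: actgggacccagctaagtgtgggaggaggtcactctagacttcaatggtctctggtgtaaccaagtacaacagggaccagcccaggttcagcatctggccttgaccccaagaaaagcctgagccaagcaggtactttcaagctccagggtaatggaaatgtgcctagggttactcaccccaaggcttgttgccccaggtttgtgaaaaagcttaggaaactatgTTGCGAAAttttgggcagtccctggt
Cfb: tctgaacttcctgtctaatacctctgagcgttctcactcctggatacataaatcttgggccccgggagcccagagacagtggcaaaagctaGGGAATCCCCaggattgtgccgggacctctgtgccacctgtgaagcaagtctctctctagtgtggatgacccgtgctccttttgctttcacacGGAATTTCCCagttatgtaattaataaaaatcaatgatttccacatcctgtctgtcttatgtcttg
C4b: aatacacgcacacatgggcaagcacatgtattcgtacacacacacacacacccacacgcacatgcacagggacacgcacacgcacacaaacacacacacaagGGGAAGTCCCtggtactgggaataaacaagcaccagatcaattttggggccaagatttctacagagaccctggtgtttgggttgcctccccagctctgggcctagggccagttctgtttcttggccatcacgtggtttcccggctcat

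Both strands were searched for the NF-kB consensus, the C/EBP motif TTNNGCAA, the STAT motif TTCNNNGAA and the interferon response motif GAAANNGAAA. Lcn2 held an NF-kB match 202 to 193 bases and a C/EBP match 158 to 151 bases before its start. C3 held a C/EBP match 26 to 19 bases before its start. Cfb held NF-kB matches at 159 to 150 and at 66 to 57 bases, and C4b held one at 148 to 139 bases. Saa1 and Saa2 each held a C/EBP match, at 39 to 32 and at 140 to 133 bases before the start. None of the 4 motifs was matched in the windows of Lrg1, Pigr, Serping1 and Saa3, and no member matched the STAT or interferon motif. The Serping1 window, chr2:84605789-84606038, lies inside its annotated gene, as does that of Lcn2. Among 21770 promoters of protein-coding genes, 4.2% held the NF-kB consensus, 9.3% the C/EBP motif, 7.7% the STAT motif and 3.3% the interferon motif. These matches are a description of letters in a short window. Their part in the changes was not tested.

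Lcn2 encodes lipocalin 2, which binds bacterial siderophores and withholds iron from bacteria. The gene (ENSMUSG00000026822) lies on chromosome 2 from 32274645 to 32278264 on the minus strand. Its raw counts were 4, 2, 1 and 1 in PBS replicates 1 to 4 and 222, 308, 234 and 39 in TNF replicates 1 to 4. Normalized CPM were 0.107, 0.0744, 0.0394 and 0.0226 in PBS and 7.88, 10.7, 8.21 and 3.35 in TNF. Every TNF library lay far above every PBS library, and TNF replicate 4 was the lowest of its group. The means were 0.0609 ± 0.0376 in PBS and 7.52 ± 3.05 after TNF (SD, n = 4). The log2 fold change was 6.89 (SE 0.48, edgeR adjusted p = 2.07e-06), a fold change of 119 with a 95% interval of 56.7 to 249. Lcn2 held rank 25 among the rises of all tested genes. Without TNF replicate 4 the TNF mean was 8.92 and the log2 fold change 7.14. All 75-base stretches of its canonical transcript were unique to it.

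Lrg1 encodes leucine-rich alpha-2-glycoprotein 1, a secreted protein that modulates TGF-beta signaling through endoglin. The gene (ENSMUSG00000037095) lies on chromosome 17 from 56426283 to 56429001 on the minus strand. Counts were 13, 2, 1 and 4 in PBS and 317, 669, 618 and 53 in TNF. Normalized CPM were 0.348, 0.0744, 0.0394 and 0.0905 in PBS and 11.2, 23.1, 21.7 and 4.55 in TNF. The groups were well separated, with TNF replicate 4 again lowest in its group and PBS replicate 1 highest among controls. The means were 0.138 ± 0.142 and 15.2 ± 8.84 (SD, n = 4), and the log2 fold change was 6.66 (SE 0.65, edgeR adjusted p = 1.77e-05). This is a fold change of 101 with a 95% interval of 37.5 to 271, at rank 31 among the rises. Without TNF replicate 4 the TNF mean was 18.7 and the log2 fold change 6.95, and without PBS replicate 1 it was 7.64. Only 36.0% of the 75-base stretches of Lrg1 were unique, because the gene Gm56918 is annotated on the opposite strand. That gene has no row in the count table, and the sources used here do not say whether strand was used in counting, so the Lrg1 count is uncertain in that respect.

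The serum amyloid A genes encode apolipoproteins that are among the most strongly induced acute phase proteins of the liver, and Saa3 is made mainly outside it. Saa1, Saa2 and Saa3 lie within 42.3 kb on chromosome 7, from 46361422 to 46403737. Saa3 (ENSMUSG00000040026) had 1, 2, 1 and 1 counts in PBS and 7, 6, 5 and 0 in TNF. The 3 TNF libraries other than replicate 4 were above all PBS libraries, and replicate 4 was at 0, so the groups overlapped. In that library 3 counts equal 0.258 normalized CPM, above the highest PBS value of 0.0744. A count of 0 there therefore does not place it below PBS. Saa1 (ENSMUSG00000074115) had 2, 0, 0 and 0 counts in PBS and 3, 1, 2 and 0 in TNF. Saa2 (ENSMUSG00000057465) had 2 counts in PBS replicate 1 and 0 in all other libraries, where a count of 0 allows up to 3 counts. None of the 3 genes passed the filter on low counts, and Saa4, the constitutive family member, had 0 counts throughout. With the filter removed, the edgeR adjusted p was 0.118 for Saa3, 0.363 for Saa1 and 0.407 for Saa2. No change was therefore called in these genes, which had at most 7 counts per library. This does not show that they were unchanged.

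C3 is the central complement component, whose cleavage marks targets for uptake and starts the terminal pathway. The gene (ENSMUSG00000024164) lies on chromosome 17 from 57510964 to 57535155 on the minus strand. It had 6, 0, 0 and 0 counts in PBS and 14, 74, 16 and 11 in TNF. Every TNF library exceeded every PBS library also in normalized CPM, at 0.497, 2.56, 0.561 and 0.945 in TNF against at most 0.161 in PBS. The level was low in absolute terms, and the highest value was in TNF replicate 2. The means were 0.0402 ± 0.0804 and 1.14 ± 0.967 (SD, n = 4), and the log2 fold change was 4.57 (SE 0.93, edgeR adjusted p = 0.00246). This is a fold change of 23.8 with a 95% interval of 5.73 to 98.8, at rank 75 among the rises. Since 3 PBS libraries had 0 counts, the size depends on the handling of zeros. The TNF mean was 11.5 times the level that 3 counts give in those libraries. Leaving out 1 library gave log2 fold changes of 3.68 (without TNF replicate 2) to 7.99 (without PBS replicate 1), and C3 was called each time, at 4.66 without TNF replicate 4.

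TNF replicate 2 was also the library with the most counts of several liver genes. Albumin (Alb) had 8, 5, 1 and 1 counts in PBS and 0, 528, 0 and 5 in TNF. Ahsg had 75 counts in TNF replicate 2 and at most 16 elsewhere, and Serpina1a had 21 there and at most 2 elsewhere. These are hepatocyte markers, a list whose 7 genes summed to 10.3 to 20.3 normalized CPM in PBS and to 6.32, 31.7, 6.81 and 12.7 in TNF. Of these 7 genes, 5 were tested, none was higher, and Cyp2e1 was lower (-2.43, or -3.31 without TNF replicate 2). Alb, which did not pass the filter, was called higher without it (edgeR adjusted p = 0.000334), and Ahsg was called higher without TNF replicate 4 (1.74, edgeR adjusted p = 0.0346). Without TNF replicate 2 the log2 fold change of C3 was 3.68 (SE 0.86, edgeR adjusted p = 0.00697). Apart from this value, the part of liver RNA in the C3 counts was not tested.

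**Figure D2:**
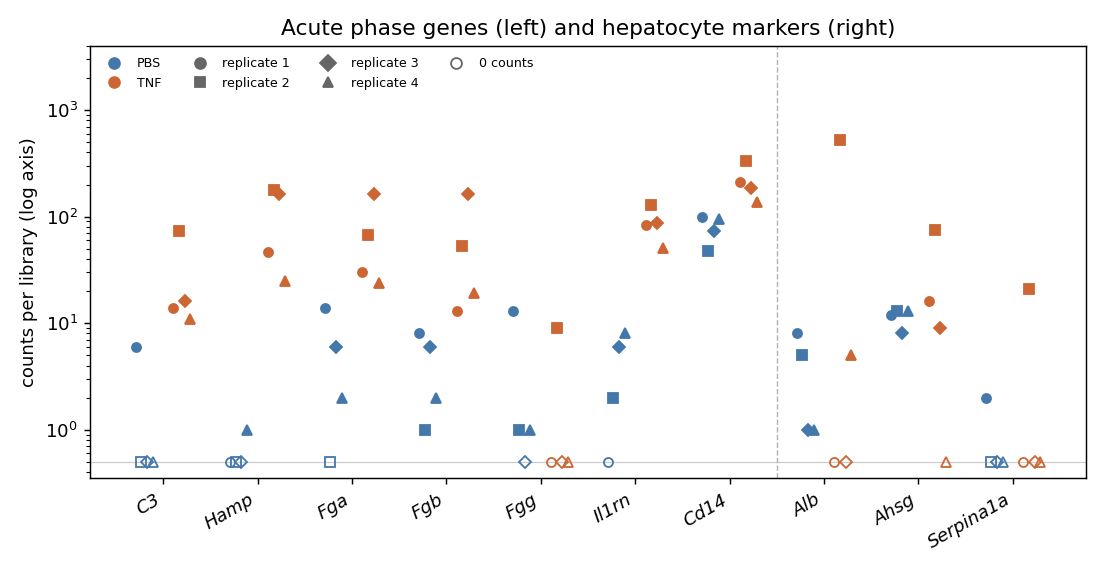
Raw counts per library (log axis) of C3 and 6 acute phase genes on the left and of 3 hepatocyte markers on the right, with open symbols for 0 counts. C3, Hamp, Fga, Fgb, Il1rn and Cd14 were above the PBS libraries in every TNF library, whereas high Alb, Ahsg and Serpina1a were found in TNF replicate 2.

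Cfb encodes factor B, the serine protease of the alternative pathway convertase. The gene (ENSMUSG00000090231) lies on chromosome 17 from 35074852 to 35081559 on the minus strand, in the same region as C2 and C4b. Normalized CPM were 4.15, 4.65, 4.69 and 3.26 in PBS and 5.43, 4.88, 4.11 and 3.86 in TNF. The groups overlapped in part, with TNF replicates 1 and 2 above every PBS library and PBS replicate 4 below every TNF library. The means were 4.19 ± 0.665 and 4.57 ± 0.718 (SD, n = 4). The log2 fold change was 0.14 (SE 0.18, edgeR adjusted p = 0.550) with a 95% interval of -0.25 to 0.53, and it was -0.20 when libraries were scaled by size alone and 0.22 without TNF replicate 4. Only 24.8% of its 75-base stretches were unique, because the readthrough gene Gm20547 covers C2 and Cfb and the gene Nelfe overlaps it on the opposite strand. Gm20547 had 0 counts in every library and Nelfe 215 to 565, so the Cfb count is uncertain, and counting by strand would not separate it from Gm20547, which lies on the same strand. C2 shares sequence with Gm20547 too, and 44.7% of its stretches were unique. C2, the neighbor with the corresponding role in the classical pathway, stood at -0.26 on the log2 scale (SE 0.23, edgeR adjusted p = 0.382). The log2 ratio of Cfb to C2 counts within a library was 1.60 ± 0.308 in PBS libraries and 1.96 ± 0.452 in TNF libraries (SD, n = 4). This difference of 0.36 did not pass the test (exact permutation test, two-sided p = 0.257, or 0.343 when adjusted over 4 ratios).

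C4b encodes complement C4, which is cleaved at the start of the classical and lectin pathways. The gene (ENSMUSG00000073418) lies on chromosome 17 from 34947354 to 34962912 on the minus strand. Counts were 205, 165, 105 and 143 in PBS and 42, 78, 18 and 49 in TNF. In normalized CPM these were 5.49, 6.13, 4.14 and 3.24 in PBS and 1.49, 2.70, 0.632 and 4.21 in TNF. TNF replicates 1 to 3 lay below every PBS library, and TNF replicate 4 lay within the PBS range. The means were 4.75 ± 1.31 and 2.26 ± 1.55 (SD, n = 4), and the log2 fold change was -1.16 (SE 0.44, edgeR adjusted p = 0.0567), with a 95% interval of -2.14 to -0.17. C4b therefore missed the threshold. Without TNF replicate 4 it was called, at -1.54 (edgeR adjusted p = 0.00569), and other settings that called it are given in the closing section.

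Of the 75-base stretches of C4b, 74.9% were unique, and its paralog C4a shared 1248 of them. C4a had 3 counts in PBS replicate 4, 2 in TNF replicate 1, 1 in TNF replicate 3 and 0 elsewhere. Nearly all C4 counts were thus assigned to C4b, and with both genes summed the log2 fold change was -1.14 (edgeR adjusted p = 0.0538). The log2 ratio of C4b to C4a differed by -2.12 between the groups, with an SD of 1.82 among TNF libraries, and did not pass the test (exact permutation test, two-sided p = 0.143, or 0.286 when adjusted over 4 ratios).

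Serping1 encodes the C1 inhibitor, which blocks the proteases that start the classical and lectin pathways. The gene (ENSMUSG00000023224) lies on chromosome 2 from 84595705 to 84620873 on the minus strand. It had 0, 0, 1 and 5 counts in PBS and 2, 3, 1 and 6 in TNF, which overlap. It was not tested, and without the filter its edgeR adjusted p was 0.289, so no change was called. This does not show that Serping1 was unchanged.

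Pigr was by far the most abundant of the 10 genes. The gene (ENSMUSG00000026417) lies on chromosome 1 from 130754397 to 130779986 on the plus strand. Normalized CPM were 1069, 778, 896 and 968 in PBS and 1126, 1255, 1114 and 855 in TNF. TNF replicates 1 to 3 were above every PBS library, while TNF replicate 4 was within the PBS range. The means were 928 ± 122 and 1088 ± 167 (SD, n = 4), and the log2 fold change was 0.23 (SE 0.18, edgeR adjusted p = 0.331), with a 95% interval of -0.17 to 0.63. The direction depended on scaling, since library size alone gave -0.12, and without TNF replicate 4 Pigr was called at 0.34 (edgeR adjusted p = 0.0379). By mean count in PBS it held rank 35 among all genes. It made up 99.0% ± 0.290 of the counts of the 10 genes in PBS (SD, n = 4), compared with 97.3% ± 0.652 in TNF.

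**Figure D3:**
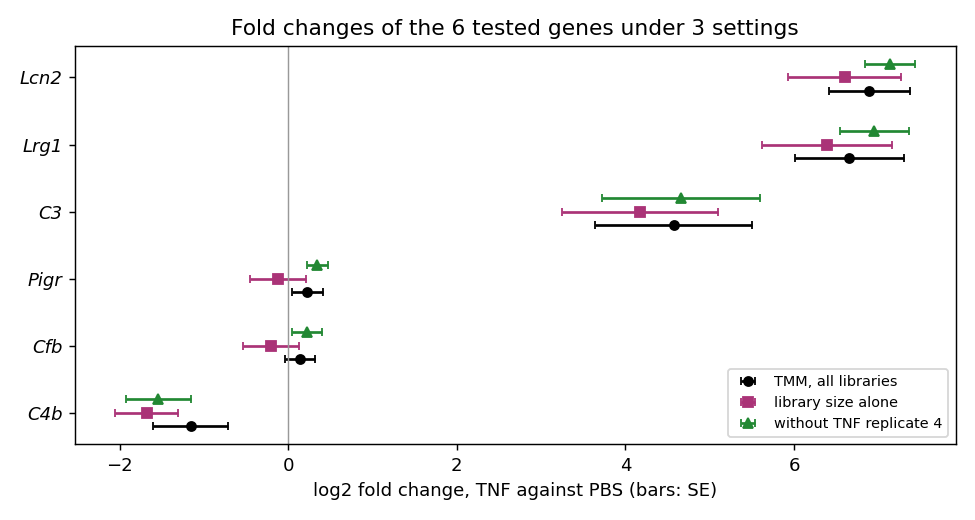
Log2 fold changes (TNF against PBS, bars are SE) of the 6 tested genes with all libraries and TMM scaling, with scaling by library size alone, and without TNF replicate 4. Lcn2, Lrg1 and C3 were above 0 in all 3, C4b was below 0 in all 3, and Pigr and Cfb changed sign under library size alone.

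The 10 genes together accounted for 0.112% ± 0.0262 of the counts of PBS libraries and 0.105% ± 0.0437 of those of TNF libraries (SD, n = 4), with 0.0391% in TNF replicate 4. Without Pigr the share was 0.00108% ± 0.000182 in PBS and 0.00299% ± 0.00158 in TNF. Per kilobase of canonical transcript, the order of levels in PBS was Pigr (240 ± 31.6 normalized CPM per kb), Cfb (1.25 ± 0.199), C4b (0.874 ± 0.241), then the other 7 genes. Cfb and C4b overlapped, as did all neighbors below C4b, from Lrg1 at 0.0766 to C3 at 0.00779. In TNF the order was Pigr (281 ± 43.2), Lrg1 (8.41 ± 4.90), Lcn2 (8.22 ± 3.33), Cfb (1.37 ± 0.215), C4b (0.415 ± 0.286) and C3 (0.221 ± 0.187). Lrg1 and Lcn2 overlapped with each other and were above Cfb in every library. These levels divide by the full transcript length, while 24.8% of the 75-base stretches of Cfb and 36.0% of those of Lrg1 were unique. The places of Cfb and Lrg1 in the order are uncertain in that respect. From C4b down to Saa2 each neighbor overlapped the next.

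The other complement genes were described from lists of components, inhibitors and receptors. Among 25 further components 10 had 0 counts in every library and 5 were tested, namely C1ra, C2, C8g, Fcna and Masp2. None of the 5 was called by edgeR, beside 43.0% of all tested genes, and none had an unadjusted edgeR p under 0.05. DESeq2 and limma-voom called none of the 5 either. Their median log2 fold change was -0.47, beside 0.03 over all tested genes. C1qb and C1qc, chains of the C1q recognition molecule, had 0 counts throughout, and C1qa had 24 counts in TNF replicate 4, 1 in PBS replicate 1 and 0 elsewhere. Of 8 complement receptors, 6 had 0 counts in every library and none was tested, among them C3ar1 and C5ar1, the receptors of the C3a and C5a fragments.

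Of 13 inhibitors and related genes, 6 were tested, 2 rose and 1 fell, beside 23.4% and 19.6% of all tested genes, with a median of -0.06. Cr1l, a membrane protein that inhibits the C3 convertases, had 31.8 ± 2.77 normalized CPM in PBS and 75.9 ± 24.4 with TNF (SD, n = 4) and rose by 1.26 on the log2 scale (SE 0.19, edgeR adjusted p = 0.000448). Cd55, which accelerates the decay of convertases, rose from 4.48 ± 0.452 to 7.08 ± 2.28, by 0.63 (SE 0.21, edgeR adjusted p = 0.0288), but by 0.14 and not called under library size alone. Cfi, the protease that inactivates C3b and C4b, fell from 44.6 ± 5.78 to 23.6 ± 10.7, by 0.93 (SE 0.28, edgeR adjusted p = 0.0213). The call of Cfi was lost without PBS replicate 3 (-0.87, edgeR adjusted p = 0.0530), and that of Cd55 without PBS replicate 2 (0.57, 0.0784) or 3 (0.64, 0.0602). After TMM scaling, TNF replicate 4 was the highest TNF library for Cr1l, at 112 against 59.1 to 69.7 in the others. The same held for Cd55, at 10.5 against 5.67 to 6.25. In raw counts TNF replicate 4 was the lowest TNF library for both, at 1303 against 1666 to 2015 and at 122 against 164 to 176. Without it Cr1l rose by 1.03 and Cd55 by 0.42, and Cfi fell by 1.13, with all 3 called. C4bp, a cofactor of Cfi, was chosen after its values were seen and was not called, at 93.3 ± 10.3 in PBS and 86.6 ± 10.8 in TNF (edgeR adjusted p = 0.534).

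**Figure D4:**
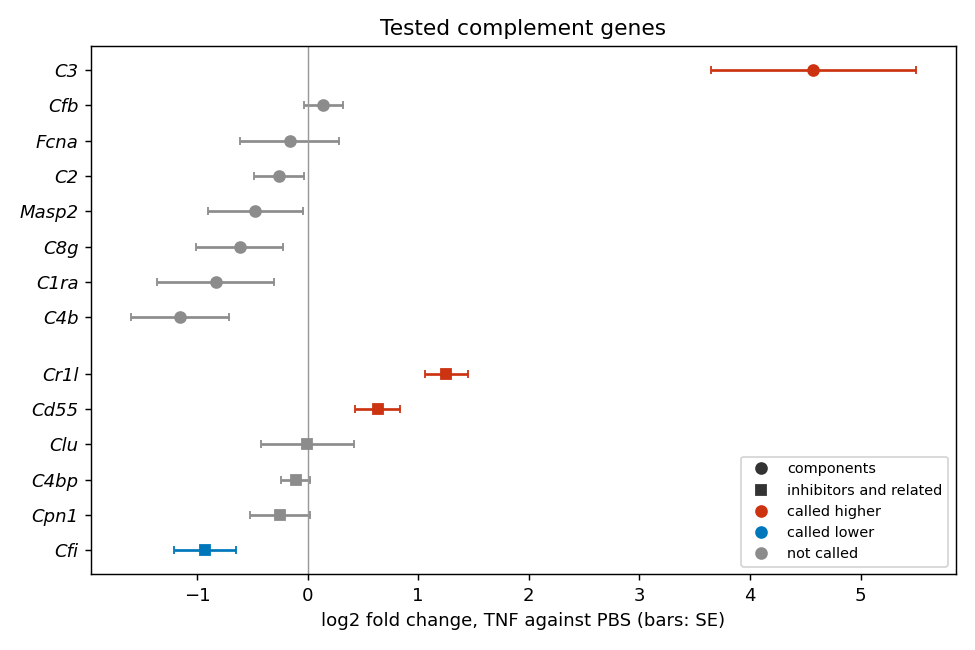
Log2 fold changes (TNF against PBS, bars are SE) of the tested complement genes, with circles for components and squares for inhibitors and related genes, red for called higher, blue for called lower and grey for not called. C3 stood at 4.57, Cr1l and Cd55 were higher, Cfi was lower, and C4b was the lowest value that was not called.

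Among 29 further acute phase genes 8 were tested, 6 rose and none fell, beside 23.4% and 19.6% of all tested genes. The median of the 8 was 3.01, beside 0.03 over all tested genes. The filter on low counts shaped this tally, as Hamp, Il1rn, Fga and Fgb passed it through their TNF counts, while Crp (C-reactive protein) did not pass. Crp had 4, 3, 2 and 6 counts in PBS and 0 in every TNF library, and it was called lower without the filter (edgeR adjusted p = 0.0193) and by DESeq2 (adjusted p = 0.0391). Hamp, which encodes the iron-regulating hormone hepcidin, had 0, 0, 0 and 1 counts in PBS and 47, 177, 164 and 25 in TNF. Counts pooled over each group and divided by the pooled scaled library sizes gave a ratio of 568, with a 95% counting interval of 101 to 22502 (edgeR adjusted p = 1.53e-05). This ratio rests on the single PBS count, in replicate 4, and without that library every PBS library was at 0. Il1rn, the IL-1 receptor antagonist, rose by 4.90 (SE 0.50, edgeR adjusted p = 2.37e-05), and Cd14, a lipopolysaccharide co-receptor, by 1.96 (SE 0.24, edgeR adjusted p = 9.12e-05). Fga, a fibrinogen chain, had 14, 0, 6 and 2 counts in PBS and 30, 67, 163 and 24 in TNF, and rose by 4.06 (SE 0.73, edgeR adjusted p = 0.00121), or by 4.96 without PBS replicate 1 and 3.42 without TNF replicate 3. Fgb and Fgg, the other fibrinogen chains, were looked up after the values of Fga were seen. Fgb rose by 4.21 (SE 0.81, edgeR adjusted p = 0.00180), with its highest count, 164, in TNF replicate 3 like Fga, and by 3.27 without that library. Fgg was not tested and had 13, 1, 0 and 1 counts in PBS and 0, 9, 0 and 0 in TNF. The part of liver RNA in these counts was not tested.

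Of 11 genes that regulate the acute phase response 10 were tested, 8 rose and 1 fell, with a median of 2.25, beside 43.0% called among all tested genes. Of these Osmr had 0 to 4 counts in PBS and 191 to 647 in TNF, so it passed the filter through its TNF counts. Osmr, the receptor subunit for oncostatin M, rose by 8.26 (SE 0.36, edgeR adjusted p = 1.54e-07), or by 8.90 without PBS replicate 1. Its partner Il6st (gp130), shared by receptors of the IL-6 family, rose by 2.55 (SE 0.17, edgeR adjusted p = 1.41e-06). Socs3, a feedback inhibitor of that signaling, rose by 5.60 (SE 0.29, edgeR adjusted p = 3.19e-07). Cebpd, a transcription factor of the C/EBP family, rose by 3.77 (SE 0.15, edgeR adjusted p = 9.95e-08). The gene that fell was Il6ra, the IL-6 receptor, at -2.18 (SE 0.32, edgeR adjusted p = 0.000292), and the gene not called was Nfkbiz, at 0.39 (SE 0.22, edgeR adjusted p = 0.179). Both were named after their values were seen. Il6 itself had 0 counts in every library.

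Among 11 genes of mucosal IgA 7 were tested, 1 rose and 2 fell, a share like the 43.0% called among all tested genes, with a median of -0.32. Tgfb1, which promotes class switching to IgA, rose by 1.73 (SE 0.14, edgeR adjusted p = 5.99e-06). Fcgrt, the neonatal Fc receptor that transports IgG, fell by 1.86 (SE 0.37, edgeR adjusted p = 0.00228), and Aldh1a1, an enzyme of retinoic acid synthesis, by 1.12 (SE 0.24, edgeR adjusted p = 0.00364). Ccl25 and Ccl28, chemokines that attract IgA plasma cells and were named after their values were seen, were not called (-0.32 and 0.12), although Ccl25 was called without PBS replicate 4 (-0.49, edgeR adjusted p = 0.0488) and Ccl28 changed sign with library size alone. Of 6 binding partners or downstream genes of Lcn2 and Lrg1, only Tgfbr2, a TGF-beta receptor, was tested, and it rose by 2.74 (SE 0.18, edgeR adjusted p = 1.29e-06). Lrp2, an uptake receptor for lipocalin 2, had 0 counts throughout, and Eng, which encodes endoglin, had 0 to 10 counts in PBS and 8 to 19 in TNF and did not pass the filter. Lrp2 and Eng were named after their values were seen.

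Markers of other cell types were measured beside these results. Neutrophils store lipocalin 2 in their granules, and their 8 markers summed to 0 to 0.0536 normalized CPM in PBS and 0 to 0.456 in TNF, with S100a8, S100a9, Mpo, Elane and Retnlg at 0 counts in every library. Of the rest, Ltf (lactoferrin) had 2, 1, 0 and 2 counts in PBS and 5, 9, 10 and 0 in TNF, was not tested, and was called higher without the filter (2.50, edgeR adjusted p = 0.0422). The part of neutrophils in the Lcn2 values was not otherwise tested. Immune markers summed to 9.82 to 14.5 in PBS, 13.9 to 16.4 in TNF replicates 1 to 3 and 71.1 in TNF replicate 4, where Lyz2, a paralog of the Paneth cell gene Lyz1, had 749 counts. Of these 9 genes 3 were tested and Cd52 rose (1.69), while Cd3e, Cd79a and Adgre1 were at 0. Plasma cell markers summed to 16.7 to 29.0 in PBS and 46.5 to 53.9 in TNF, nearly all of it Sdc1, which epithelia also express and which rose by 1.09 (0.74, not called, with library size alone), while Mzb1 was at 0 and Jchain had 1 count in all.

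Stroma markers summed to 0.223 to 0.452 in PBS and 1.23 to 1.73 in TNF, where Vim rose by 2.05 and Col1a2 and Col3a1 were at 0. Col1a1 had 0 counts in PBS and 6, 1, 2 and 1 in TNF, was not tested, and was called higher without the filter (edgeR adjusted p = 0.0190). Enterocytes express Pigr, and their 8 markers summed to 29.7 to 44.2 in PBS, 15.7 to 20.2 in TNF replicates 1 to 3 and 59.9 in TNF replicate 4. Of these markers Apoa4 (-3.94, or -5.10 without TNF replicate 1) and Rbp2 (-2.04) fell, none rose and none was at 0. Without TNF replicate 4, Sis (-0.92, edgeR adjusted p = 0.00553) and Fabp2 (-0.89, 0.000587) were also called lower. Goblet cell markers summed to 7155 to 11182 in PBS, 11236 to 12022 in TNF replicates 1 to 3 and 25434 in TNF replicate 4. Muc2 rose by 1.27 (0.96, not called, with library size alone), Clca1 (-2.55) and Fcgbp (-1.53) fell, and 4 of the 7 were not called. The Clca1 value rested on PBS replicate 1, at 554 normalized CPM against 41.1 to 44.0 in the other PBS libraries, and was -0.60 without it. Without TNF replicate 4, Agr2 was also called lower (-1.28, edgeR adjusted p = 4.14e-05). Clca1 was not called without TNF replicate 1 (-2.51, edgeR adjusted p = 0.0551), 2 (-2.52, 0.0551) or 3 (-2.51, 0.0651). Paneth markers were higher in TNF replicate 4 as well, at 1058210 normalized CPM against 276976 to 402715 in the other libraries, beside its low scaling factor. In raw counts, TNF replicate 4 was the lowest TNF library for goblet markers, at 296180 against 320219 to 338805. It was the highest for enterocyte markers (697, against 448 to 570) and immune markers (828, against 391 to 474). The same held for Paneth markers (12322801, against 9646078 to 11590426). The part of enterocytes, goblet cells and immune cells in the values of TNF replicate 4 was not tested.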

How the data were processed

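RNA-seq counts per gene came from 8 libraries of sorted Paneth cells (Aurum Total RNA Mini kit, TruSeq Stranded mRNA kit), grouped as PBS or TNF by their labels. The authors deposited raw counts for 55414 Ensembl IDs, unnormalized. The submitters' processing notes name FastQC 0.12, STAR 2.7.10a, DESeq2 and build mm39. The counter, annotation, use of strand and treatment of multi-mapped reads were not stated. Symbols, coordinates, lengths and promoters were taken from GENCODE M39 (GRCm39, the same build), where 54749 IDs matched and 665 did not.

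Counts were tested with edgeR 4.0.16 in R 4.3.3 (filterByExpr, TMM, quasi-likelihood F test, no covariate). SE were derived from the F statistic. Count ratios (0.5 added) were compared by two-sided exact permutation over 70 assignments (smallest p 0.0286). Alternatives were scaling by RLE, by library size alone or with the 28 Defa genes left out, other filters, DESeq2 1.42.0, limma-voom (limma 3.58.1), a replicate block, paralogs summed, an adjusted p under 0.01 and leaving out each library. The procedure was tested on simulated data. A 75-base stretch was unique if no transcript of another gene held it on either strand. Intervals from counts and the limit of 3 counts cover counting error only, and p-values measure the spread between these libraries. No 2 libraries were duplicates (lowest chi-square per degree of freedom 8.77).

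The members and lists were chosen with earlier results of these data known. Named genes were the 10 members, C2, C4a and Saa4, the 4 called genes with the smallest p in each pathway list, and the called cell type markers. Alternatives were also run for 6 genes outside the rule. Any other gene named was chosen after its values were seen.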

Additional observations from a re-analysis of the deposited data

Results flagged for a closer look

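Lrg1 was checked with the other members for single libraries far from their group, and chance flags about 1 in 20 such groups. PBS replicate 1 had 0.348 normalized CPM of Lrg1, from 13 counts, while the other 3 PBS libraries had 0.0394 to 0.0905. Its gap to the nearest library was 0.835 of the range of the group. The value was still below the lowest TNF library, at 4.55.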

How the results depend on the processing

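Lcn2, Lrg1 and C3 were called under every alternative that tested them, and a stricter filter (1 CPM or more in at least 4 libraries) left C3 untested. Library size alone moved the median log2 fold change of all genes from 0.03 to -0.38, with 757 genes higher and 2425 lower in place of 3122 and 2625, and it reversed Cfb (-0.20), Pigr (-0.12) and Ccl28 (-0.24). Of 654 alternative values of named genes 627 kept direction and side of the threshold, 13 lost the call, 10 gained it and 4 reversed. Ccl28 was -0.038 to 0.23 without 1 library and negative without TNF replicate 2. Clca1 was not called by limma-voom (-1.53) or with the block (-1.33). C4b was called with RLE scaling (-1.18, edgeR adjusted p = 0.0462), library size alone (-1.68, 0.00503), no filter (-1.22, 0.00339), DESeq2 (-1.14, adjusted p 0.0260) and limma-voom (-1.48, adjusted p 0.0160), and over its alternatives other than left-out libraries the adjusted p was 0.00339 to 0.0621. It was also called without PBS replicate 4 (-1.36, 0.0328), TNF replicate 2 (-1.37, 0.0453) or TNF replicate 4, and its log2 fold change without 1 library was -1.54 to -0.82. An acute phase gene was called lower with library size alone, with no filter, by DESeq2 and without PBS replicate 1. Without TNF replicate 4, Tnfsf13b (-1.09) and Apoh (-0.65) were also called lower and Hpx (2.07), Eng (1.74) and Csf1r (0.56) higher. Without a filter, 1 complement component (C1qa, from 24 counts in 1 library), 5 inhibitors and 2 partners of Lcn2 and Lrg1 were called. DESeq2 called 2 partners, the 1 CPM filter left 2 acute phase genes called because fewer were tested, and an adjusted p under 0.01 left 1 inhibitor. Leaving out 1 library gave 3 to 5 members called, 0 to 1 components (C8g, without TNF replicate 3), 1 to 3 inhibitors (1 without PBS replicate 3) and 1 to 2 partners (2 without any 1 PBS library or TNF replicate 4). The log2 ratio of Saa3 to Saa1 differed by -0.10 between groups (exact permutation p = 0.971), by 0.20 with 1 count added in place of 0.5, and by -0.74 to 0.28 without 1 library. For Saa2 to Saa1 it was -1.68 (exact permutation p = 0.143), which came from the added 0.5 and from 1 to 3 Saa1 counts, as Saa2 was at 0 in TNF and the ratio was 0 in every PBS library. Same-numbered libraries deviated with correlations of -0.144 to 0.0663. These values show no pairing by replicate number, but so few libraries cannot exclude one. A replicate block gave 5087 calls in place of 5747, with 3 members called and C4b at -1.30 (edgeR adjusted p = 0.0621). Serping1 and the Saa genes had at most 7 counts per library and did not pass the filter, so a change in them could have been missed.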
